A study of Mus musculus with 6 samples.

Results

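The WNT signalling genes of the mouse inner ear were followed in 3 libraries of wild-type animals (WT) and 3 libraries of animals whose genotype the labels write as Pou3f4y/- (Pou3f4 KO). The set was chosen by gene name and holds 48 of the 55401 genes of the count table. It comprises 19 Wnt ligands, 10 Frizzled receptors, the 2 co-receptors Lrp5 and Lrp6, 4 R-spondins, 12 secreted inhibitors (4 Dickkopf genes, 5 Sfrp genes with Frzb, and Sost, Sostdc1 and Wif1) and the feedback gene Axin2. Transcripts were measured by bulk RNA sequencing of whole inner ear. The labels describe the material as all cells of the inner ear and list interstitial cells in the cell line field. They give no strain, age, sex, dissection or number of animals per library, and do not say which part of Pou3f4 the mutant allele lacks. The study compared the genotypes to look for the mechanism of pigmentation in the mutant ear.

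Wnt proteins are secreted lipid-modified ligands that bind Frizzled receptors at the cell surface. With the co-receptors Lrp5 or Lrp6 they stabilise beta-catenin, which acts with TCF and LEF factors on target genes such as Axin2, while other Wnt signals pass through the planar polarity proteins that orient hair cells. R-spondins strengthen the signal through Lgr receptors, and Dickkopf proteins, sclerostin, secreted Frizzled-related proteins and Wif1 restrain it, either at Lrp5 and Lrp6 or by binding the ligand. In the ear the pathway is known for patterning the otic vesicle and the sensory epithelium, and in the bone around it for the control of osteoblasts.

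Library totals ranged from 18409409 to 23323953 counts, and levels are given as CPM, that is counts per 1000000 of the TMM-scaled library size. Pou3f4, an X-linked transcription factor of the otic mesenchyme, stood at 58.3, 112 and 114 CPM in WT replicates 1 to 3 and at 1.96, 1.22 and 1.62 CPM in KO replicates 1 to 3, matching the labels. Xist held 15783 and 15119 counts in KO replicates 2 and 3, which carried no reads of 4 Y-linked genes although their label is written as hemizygous. WT replicates 1 and 2 also held Xist, and WT replicate 3 and KO replicate 1 held Y-linked reads instead. WT replicate 1 stood apart from all other libraries in keratinocyte markers, and from the other WT libraries in markers of several cell types. Its summed level of 5 keratinocyte markers (Krt1, Krt5, Krt10, Krt14 and Lor, of which only Krt14 was at 0 in any library) was 782 CPM, against 5.37 and 9.81 CPM in the other WT libraries and 4.58 to 6.38 CPM in KO. It was also the lowest WT library in the 6 otic fibrocyte and mesenchyme markers (1420 CPM, against 2890 and 2730 in WT replicates 2 and 3), the 7 Schwann cell markers (4320 against 7900 and 7030 CPM) and the 6 neuron markers (878 against 2150 and 1430 CPM). Between the genotypes, the sums of the otic fibrocyte and mesenchyme markers (Coch, Otos, Otor, Car3, Tbx18 and Emilin2) did not overlap. They were 1420 to 2890 CPM in WT and 1030 to 1070 CPM in KO. Of these 6 markers, 3 were lower and 1 was higher in KO without overlap. The 6 skeletal muscle markers summed to 4410, 97.0 and 7610 CPM in WT and 14.5 to 580 CPM in KO. Apart from Krt14, all markers of these types, and of hair cells, supporting cells and melanocytes, were detected in each library.

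Of the 48 members, 41 had enough counts to be tested. Wif1, which binds Wnt ligands outside the cell, was the most abundant member per length of exon, with a level of 133 ± 22.3 CPM per kb in WT and 161 ± 3.49 CPM per kb in KO (SD, n = 3 libraries each here and below). Sfrp2 came next in the WT mean, at 62.0 ± 75.2 CPM per kb, an average made by WT replicate 1 alone, and stood at 20.8 ± 2.54 CPM per kb in KO. Sost, the sclerostin gene of osteocytes, had levels of 44.5 ± 10.5 and 39.0 ± 5.32 CPM per kb in WT and KO. The 4 osteocyte markers summed to 2040 to 3290 CPM in WT and 2980 to 3140 CPM in KO. Dkk1 stood at 26.7 ± 13.6 and 52.9 ± 7.17 CPM per kb, Dkk3 at 34.8 ± 18.3 and 26.0 ± 1.73 CPM per kb, and Frzb at 25.6 ± 4.28 and 26.5 ± 3.01 CPM per kb. The 6 highest members per length were thus all secreted inhibitors.

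Ligands and receptors were measured at lower levels per length. Wnt5a, a ligand of planar polarity signalling in the cochlea, led the ligands at 16.6 ± 2.51 CPM per kb in WT and 13.8 ± 0.640 CPM per kb in KO, followed by Wnt5b at 8.61 ± 0.817 and 8.30 ± 0.409 CPM per kb and Wnt4 at 4.64 ± 0.194 and 4.04 ± 0.421 CPM per kb. Among the receptors Fzd1 (18.1 ± 8.48 and 11.5 ± 1.09 CPM per kb), Fzd7 (12.9 ± 1.06 and 11.1 ± 0.687) and Fzd9 (11.9 ± 2.06 and 9.13 ± 0.653) were highest, and their order in WT did not exceed the spread between libraries. Rspo3 led the R-spondins, at 9.46 ± 1.48 CPM per kb in WT and 10.2 ± 0.720 CPM per kb in KO. The plot of levels per kb by library shows these ranks within each role.

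**Figure D1:**
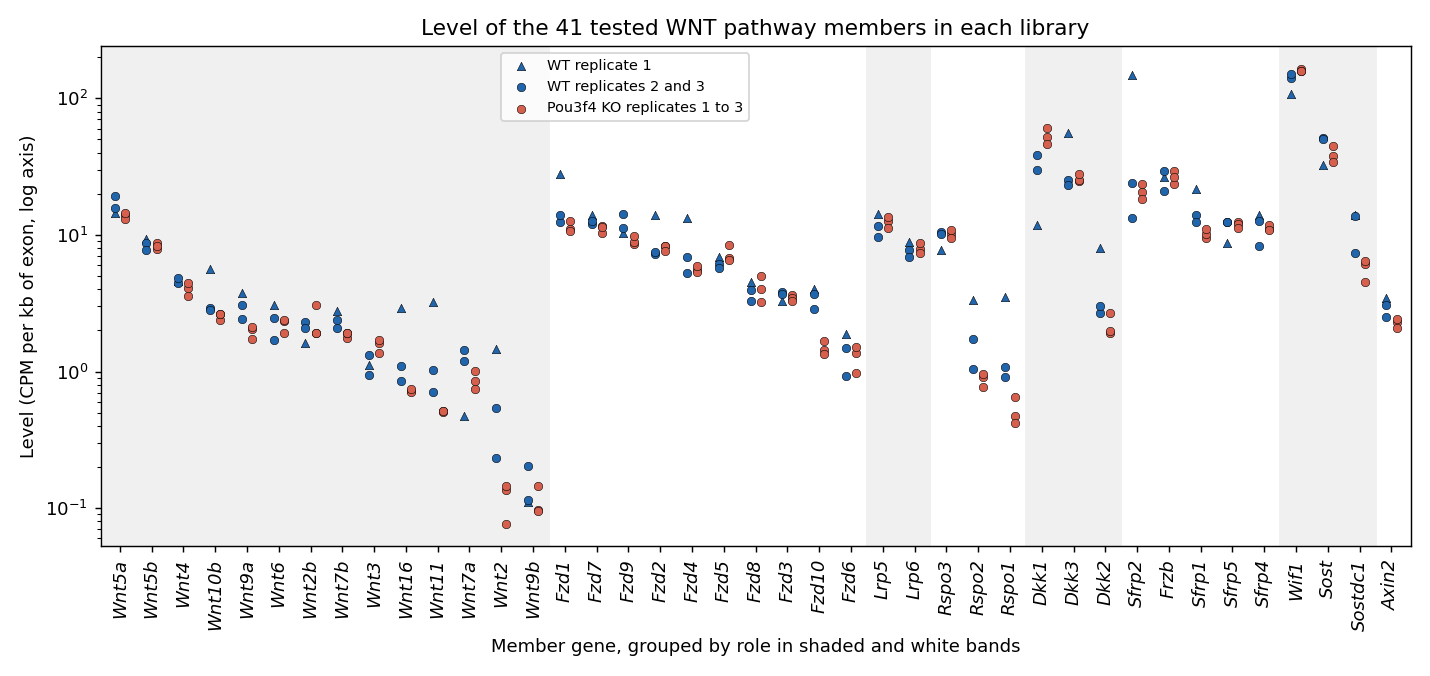
Level of each of the 41 tested members in CPM per kb of exon (log axis), 1 point per library, with WT in blue (WT replicate 1 as triangles) and Pou3f4 KO in red. Wif1, with a mean of 147 CPM per kb over the 6 libraries, stands highest, and the triangles of Sfrp2, Wnt11, Wnt16 and Rspo1 lie well above all other points of those genes.

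None of the 41 tested members passed an adjusted p of 0.05 between the genotypes (edgeR quasi-likelihood test, 0 higher and 0 lower), where 0.396% of all 19687 genes tested passed. At an unadjusted p under 0.05, 14 of the 41 stood apart, 1 higher and 13 lower in KO, against 19.6% of all genes (8.71% higher and 10.9% lower). DESeq2 called 6 members, all lower in KO (Fzd10, Sostdc1, Wnt11, Rspo1, Rspo2 and Sfrp1), where it called 8.14% of all genes and 4.89% of them as lower. Fitted log2 fold changes of KO over WT were below 0 for 30 of the 41 members (73.2%), with a median of -0.25, against 51.0% of all genes and a median of -0.01. In 20 of the 41 the libraries of the genotypes did not overlap, 3 higher and 17 lower in KO, where 27.7% of all genes tested had no overlap, 15.0% higher and 12.7% lower. The summed otic fibrocyte and mesenchyme markers were also lower in every KO library than in every WT library, although 1 of the 6 was higher in each KO library. The summed skeletal muscle markers varied widely and overlapped. The part of either in the member values was not tested.

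A large part of the spread came from WT replicate 1. It held the highest value of the 6 libraries in 25 of the 41 members (61.0%), against 28.8% of all genes, and its level was at least 2 times that of every other library for 6 members (Sfrp2, Wnt2, Wnt11, Wnt16, Dkk2 and Rspo1, 14.6% of those tested, against 2.35% of all genes). For 1 member, Dkk1 (2.44%, against 3.34% of all genes), every other library stood at least 2 times above WT replicate 1. The median coefficient of variation of the members was 23.6% in WT and 9.44% in KO, and 12.4% over WT replicates 2 and 3 alone. Over all genes tested it was 17.3%, 7.69% and 9.4%, so it fell in the same way. Without WT replicate 1 the median fold change of the members was -0.16, with 25 of 41 below 0 (61.0%, against 50.5% of all genes). edgeR then called Fzd10 and Sfrp1 lower, 2 of 41 members against 5.46% of all genes called lower. Then 25 members had no overlap, 5 higher and 20 lower in KO, against 47.0% of all genes, 24.2% higher and 22.8% lower. The 20 members without overlap over all libraries are necessarily among these 25, since leaving out a library cannot create an overlap. The part of the skin markers, which were raised in this library alone, and of the fibrocyte, Schwann cell and neuron markers, which were lower in it than in the other WT libraries, in the member values was not tested.

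**Figure D2:**
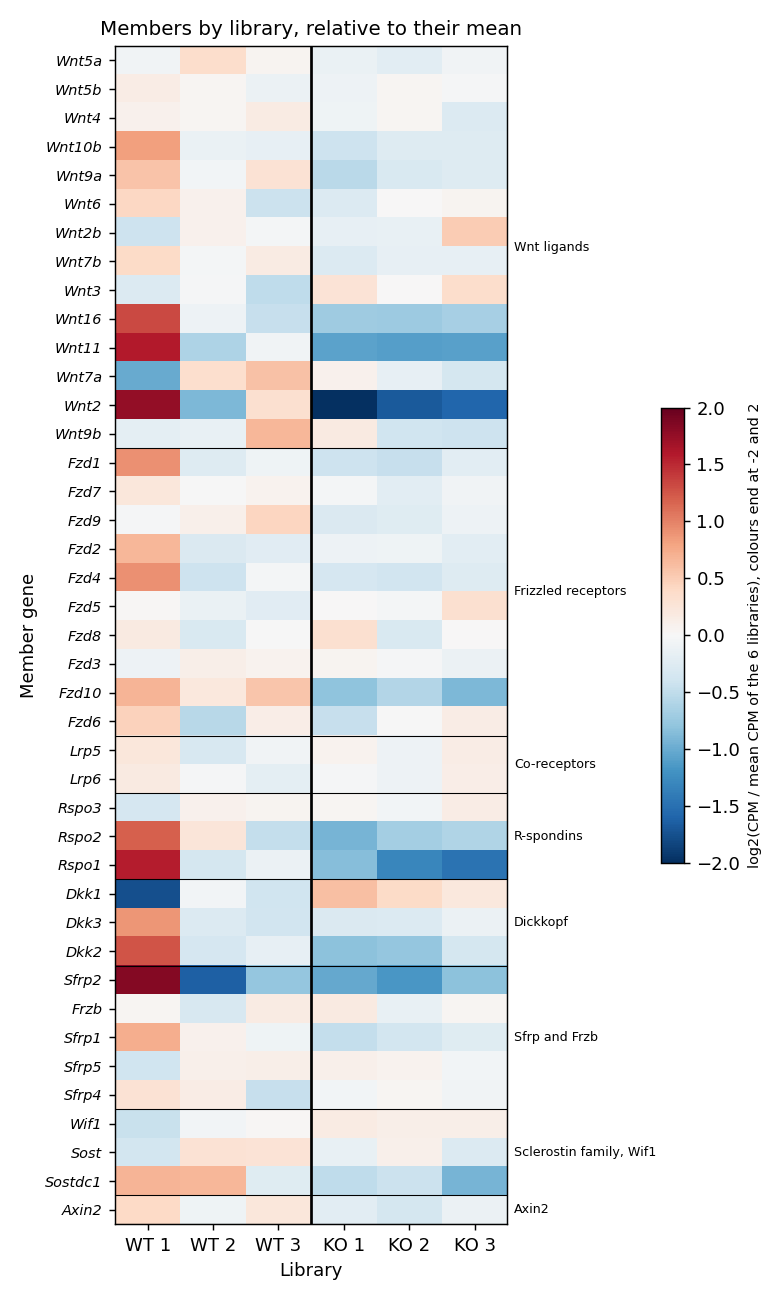
Level of the 41 tested members (rows, grouped by role) in the 6 libraries (columns), as the log2 ratio of CPM to the member's mean over the libraries, with colours ending at -2 and 2. The column of WT replicate 1 holds the highest value in 25 of 41 rows, while Dkk1 is lowest there.

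Fzd10 was the receptor that differed most between the genotypes. Fzd10 (ENSMUSG00000081683, mm10 chromosome 5, 128600844 to 128604093, plus strand) encodes a Frizzled receptor of the beta-catenin branch. It held 233, 180 and 236 counts in WT replicates 1 to 3 and 107, 125 and 81 counts in KO replicates 1 to 3, which are 13.0, 9.38 and 12.0 CPM against 4.66, 5.45 and 4.38 CPM. All KO libraries lay below all WT libraries, and WT replicate 1 lay close to WT replicate 3. The log2 fold change was -1.25 (SE 0.18, a 2.37-fold difference, adjusted p = 0.0556 with edgeR and 2.41e-06 with DESeq2), just outside the threshold of the main test. The fit passed when WT replicate 1 was left out (-1.16, adjusted p = 0.0191), and also when WT replicate 2 was (-1.37, adjusted p = 0.0266), where 2.37% of all genes passed as lower. The highest adjusted p on leaving out 1 library was 0.357.

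The other receptors differed less. Fzd9, a receptor needed for bone formation, stood at 23.7, 25.8 and 32.7 CPM in WT and 19.7, 20.5 and 22.6 CPM in KO, and Fzd7 at 63.6, 54.3 and 57.2 CPM against 52.6, 46.8 and 51.5 CPM. Neither gene overlapped between the genotypes, and neither passed (log2 fold changes of -0.39, SE 0.15, and -0.21, SE 0.09, adjusted p = 0.216 and 0.259, edgeR). Fzd1 stood at 117, 52.1 and 58.6 CPM in WT and 46.5, 45.0 and 53.5 CPM in KO, with WT replicate 1 far above the rest and the other libraries overlapping. Its fold change was -0.65 (SE 0.30) and -0.21 without that library. Of the 10 Frizzled genes, 8 had fold changes below 0 (against 51.0% of all genes) and 3 had no overlap (30.0%, against 27.7% of all genes). Fzd5, whose exons overlap another gene on the opposite strand over 17.8%, and Fzd8 were the 2 with fitted values above 0 (0.21 and 0.06). The co-receptors overlapped. Lrp5 stood at 138, 94.6 and 113 CPM in WT and 124, 110 and 131 CPM in KO (0.08, SE 0.15), and Lrp6 at 122, 106 and 94.7 against 107, 101 and 119 CPM (0.02, SE 0.12).

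**Figure D3:**
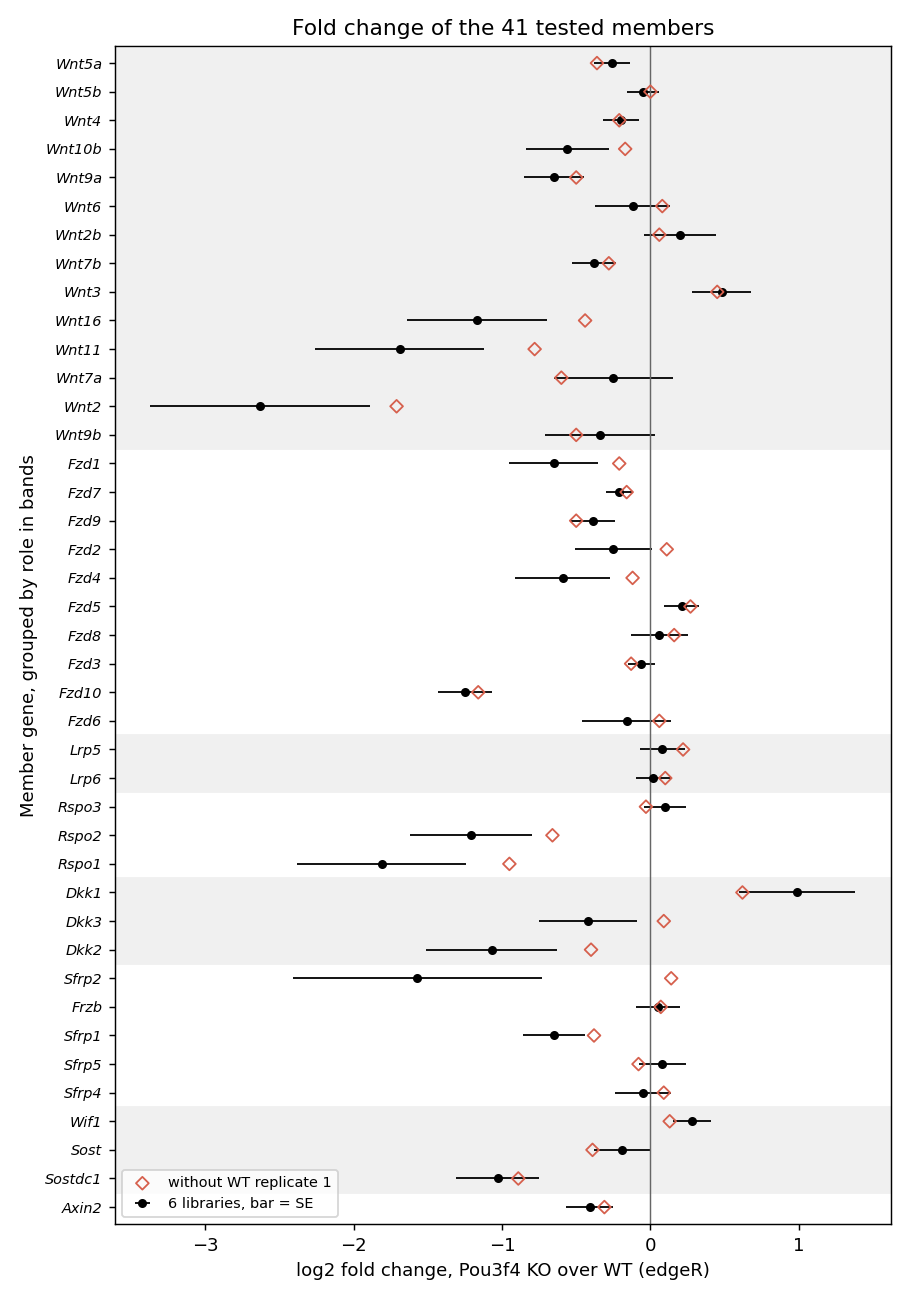
Log2 fold change of KO over WT for the 41 tested members (edgeR, horizontal axis), as filled points with SE bars for all 6 libraries and as open diamonds without WT replicate 1. Fzd10 lies near the same place in both fits (-1.25 and -1.16), whereas Sfrp2 moves from -1.57 to 0.14 and Dkk3 from -0.42 to 0.09.

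Of the 14 tested Wnt ligands, 12 had fold changes below 0 (median -0.30), against 51.0% of all genes. In 9 there was no overlap (64.3%, against 27.7% of all genes), with 8 of them lower in KO, as in 12.7% of all genes. The largest fold changes were those of ligands scarce in the ear and high in WT replicate 1. Wnt11, a ligand of cell polarity and heart development, held 239, 56 and 84 counts in WT and 49, 48 and 39 in KO, or 13.4, 2.92 and 4.27 CPM against 2.13, 2.09 and 2.11 CPM. The KO libraries were nearly equal and lay below all WT libraries. Its log2 fold change was -1.69 (SE 0.57, adjusted p = 0.184 with edgeR and 0.0321 with DESeq2) and -0.78 without WT replicate 1. Wnt16, a ligand that maintains cortical bone, stood at 12.8, 4.80 and 3.71 CPM in WT and 3.13, 3.09 and 3.25 CPM in KO (-1.17, SE 0.47, adjusted p = 0.239), and at -0.44 without that library. Wnt2 had a mean under 1 CPM and held 59, 10 and 24 counts in WT against 4, 7 and 6 in KO. Its log2 fold change was -2.63 (SE 0.74, adjusted p = 0.152), and without WT replicate 1 it was -1.71 (adjusted p = 0.0885). Without WT replicate 2 it was called lower (-3.05, adjusted p = 0.0475).

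Ligands at higher levels showed smaller differences. Wnt9a, a ligand of joint and cartilage development, stood at 12.5, 8.08 and 10.3 CPM in WT and 5.79, 6.84 and 7.09 CPM in KO, with every KO library below every WT library (-0.65, SE 0.20, adjusted p = 0.168). The 7 chondrocyte markers (Col2a1, Acan, Col9a1, Matn1, Comp, Sox9 and Col10a1), detected in every library, also summed lower, to 7790 to 9640 CPM in WT and 4170 to 5570 CPM in KO, and their part in the Wnt9a difference was not tested. In bulk tissue, fewer cells of a type and less RNA per cell cannot be told apart. Wnt5a stood at 114, 152 and 124 CPM in WT against 109, 103 and 113 CPM in KO, and the highest KO library lay just under the lowest WT library (-0.26, SE 0.12, adjusted p = 0.282). Wnt7b, a ligand active in bone and epithelia, stood at 13.6, 10.2 and 11.7 against 8.66, 9.33 and 9.36 CPM (-0.38, SE 0.15, adjusted p = 0.239).

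Wnt10b, which promotes bone formation, stood at 19.0, 9.85 and 9.61 CPM in WT and 8.05, 9.02 and 9.03 CPM in KO, a log2 fold change of -0.56 (SE 0.28) that was -0.17 without WT replicate 1. Wnt4 stood at 19.4, 18.7 and 20.3 CPM against 17.1, 18.6 and 15.1 CPM, where WT replicate 2 and KO replicate 2 lay almost together. Wnt5b overlapped fully, at 24.9, 23.0 and 20.6 against 20.9, 23.1 and 22.2 CPM. Wnt3, a ligand of the beta-catenin branch, was the only ligand without overlap that was higher in KO, at 3.41, 4.07 and 2.90 CPM in WT and 5.01, 4.18 and 5.25 CPM in KO (0.48, SE 0.20, adjusted p = 0.257). Exons of Wnt5a, Wnt7b and Wnt11 overlap a gene on the opposite strand over 4.6%, 6.6% and 8.8% of their length, and those genes held few reads, 145, 82 and 4 counts over all libraries.

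R-spondins split by member. Rspo3, the most abundant, overlapped between the genotypes at 24.0, 32.2 and 31.5 CPM in WT and 31.3, 29.2 and 33.6 CPM in KO (0.10, SE 0.14), and 13.1% of its exon length is shared with a gene on the opposite strand. Rspo2 stood at 17.1, 8.81 and 5.34 CPM in WT and 3.92, 4.66 and 4.92 CPM in KO (-1.21, SE 0.41, adjusted p = 0.189 with edgeR and 0.0442 with DESeq2). Rspo1 held 121, 34 and 41 counts in WT and 29, 21 and 15 in KO, or 6.76, 1.77 and 2.08 CPM against 1.26, 0.915 and 0.811 CPM (-1.81, SE 0.57, adjusted p = 0.172 with edgeR and 0.0336 with DESeq2). Both were separated between the genotypes with WT replicate 1 highest, and without that library the fold changes were -0.66 and -0.95 (adjusted p = 0.130 and 0.0778).

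Dkk1, an inhibitor that binds Lrp5 and Lrp6, was the member with the largest fitted change above 0. Dkk1 (ENSMUSG00000024868, mm10 chromosome 19, 30545863 to 30549665, minus strand) held 511, 1787 and 1433 counts in WT and 3377, 2886 and 2080 in KO, or 28.5, 93.1 and 72.9 CPM against 147, 126 and 112 CPM. All KO libraries lay above all WT libraries, and WT replicate 1 was far below the other WT libraries. The log2 fold change was 0.99 (SE 0.39, a 1.98-fold difference, adjusted p = 0.236 with edgeR and 0.0741 with DESeq2), and 0.62 without WT replicate 1 (adjusted p = 0.0517). The 7 osteoblast markers (Sp7, Bglap, Bglap2, Ibsp, Alpl, Runx2 and Spp1), detected in every library, summed to 9430 to 12400 CPM in WT and 14900 to 16200 CPM in KO, with WT replicate 1 lowest as for Dkk1, and their part in the Dkk1 difference was not tested. Dkk2, which binds the same co-receptors, held 536, 192 and 220 counts in WT and 163, 168 and 183 counts in KO. Its level was 29.9 CPM in WT replicate 1 and 11.2 CPM in WT replicate 3, against 7.10 to 9.90 CPM in KO. WT replicate 2 was the lowest WT library and lay just above the highest KO library. The fold change of Dkk2 was -1.07 (SE 0.44, adjusted p = 0.247 with edgeR) and -0.40 without WT replicate 1. Dkk3, a divergent family member, stood at 188, 84.2 and 78.5 CPM against 83.9, 84.3 and 94.2 CPM and overlapped.

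Secreted Frizzled-related proteins carry a domain like the ligand-binding part of the receptors. Sfrp1 stood at 94.8, 60.8 and 54.3 CPM in WT and 41.3, 44.4 and 48.4 CPM in KO, without overlap (-0.65, SE 0.21, adjusted p = 0.178 with edgeR and 0.0476 with DESeq2). It was called lower without WT replicate 1 (-0.38, adjusted p = 0.0453), when its SE was smaller although its change was too. Sfrp2 showed the greatest effect of that library among the members, at 320, 28.6 and 52.0 CPM in WT and 44.1, 39.7 and 50.6 CPM in KO. Its fold change was -1.57 (SE 0.84) over all libraries and 0.14 without WT replicate 1. Sfrp2 exons overlap a gene on the opposite strand over 16.1%, and that gene held 2773 counts over all libraries against 10163 for Sfrp2. Frzb, an inhibitor named for its place in growing cartilage and bone, overlapped, at 86.3, 67.7 and 94.8 CPM in WT and 95.4, 76.0 and 86.3 CPM in KO (0.05, SE 0.15).

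Sostdc1, a relative of sclerostin that binds both Lrp co-receptors and bone morphogenetic proteins, held 444, 471 and 258 counts in WT and 251, 264 and 150 counts in KO, or 24.8, 24.6 and 13.1 CPM against 10.9, 11.5 and 8.11 CPM. WT replicate 3 lay nearer to KO than to the other WT libraries, but above every KO library. Its log2 fold change was -1.03 (SE 0.28, a 2.04-fold difference, adjusted p = 0.143 with edgeR and 0.00978 with DESeq2) and kept to -0.89 to -1.27 on leaving out 1 library. Sost stood at 66.9, 105 and 104 CPM in WT and 77.7, 92.6 and 71.2 CPM in KO and overlapped (-0.19, SE 0.19). Without WT replicate 1, the lowest WT library for Sost, the groups did not overlap (-0.39, adjusted p = 0.0825). Wif1 stood at 261, 342 and 363 CPM in WT and 400, 385 and 384 CPM in KO, each KO library above each WT library (0.28, SE 0.13, adjusted p = 0.307). Without WT replicate 1, the lowest library for Wif1, the fold change was 0.13 (adjusted p = 0.243 with edgeR).

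Axin2, a scaffold of the beta-catenin destruction complex that the pathway itself induces, stood at 19.1, 13.7 and 17.0 CPM in WT and 12.6, 11.4 and 13.4 CPM in KO. The highest KO library lay just below the lowest WT library, and the difference did not pass (-0.41, SE 0.16, a 1.33-fold difference, adjusted p = 0.222). Its exons overlap a gene on the opposite strand over 3.8%. To set the members against the rest of the pathway, 55 other WNT genes were counted, of which 54 were tested. None passed with edgeR (0 higher and 0 lower). At an unadjusted p under 0.05, 4 were higher and 7 lower, where 8.71% and 10.9% of all genes were. DESeq2 called 2 higher and 5 lower, where it called 3.25% of all genes higher and 4.89% lower. Their median log2 fold change was -0.11, with 35 of 54 below 0, against a median of -0.01 and 51.0% of all genes. The genotypes did not overlap for 31.5% of the 54, with 6 higher and 11 lower in KO. Of all genes tested, 27.7% had no overlap, 15.0% higher and 12.7% lower.

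Of 11 feedback and target genes, 5 had fold changes above 0 and 6 below. Nkd1, a feedback inhibitor that binds Dishevelled, stood at 40.6, 37.0 and 37.0 CPM in WT and 24.1, 24.1 and 26.3 CPM in KO. The groups were wide apart and WT replicate 1 lay with the other WT libraries (-0.62, SE 0.09, adjusted p = 0.0556 with edgeR and 4.84e-06 with DESeq2). Apcdd1, a membrane inhibitor of WNT signalling named after its values had been looked at, was at 110, 90.1 and 102 CPM against 70.0, 68.8 and 68.5 CPM (-0.54, SE 0.09, adjusted p = 0.063 with edgeR and 9.46e-05 with DESeq2). Tcf7, a TCF factor and target, stood higher in KO, at 58.9, 82.6 and 77.3 CPM in WT and 102, 94.0 and 95.9 CPM in KO (0.41, SE 0.13, adjusted p = 0.174), while Lgr5, an R-spondin receptor of supporting cells, stood at 31.8, 12.1 and 12.6 CPM against 10.9, 8.15 and 11.2 CPM (-0.90, SE 0.40, and -0.30 without WT replicate 1, adjusted p = 0.28). The R-spondin receptor Lgr4 stood at 144, 116 and 104 CPM in WT and 153, 149 and 151 CPM in KO (0.32, SE 0.13), and was called higher without WT replicate 1 (adjusted p = 0.0203).

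Among 17 intracellular genes, 7 had fold changes above 0 and 10 below. Ctnnb1, which encodes beta-catenin, stood at 1370, 1290 and 1070 CPM in WT and 1620, 1620 and 1700 CPM in KO without overlap (0.40, SE 0.11, adjusted p = 0.150 with edgeR and 0.0234 with DESeq2). Its exons overlap Ulk4 on the opposite strand over 14.6%, and Ulk4 held 74174 counts over all libraries against 176219 for Ctnnb1. Among 14 planar polarity genes, 12 had fold changes below 0 (median -0.23), against 51.0% of all genes (median -0.01). Of these 12, Ror1 (0.06), Ror2 (0.14) and Ptk7 (0.26) turned above 0 without WT replicate 1. Of the 14, 28.6% had no overlap between the genotypes, 1 higher and 3 lower in KO, near the 27.7% of all genes. Celsr2, an atypical cadherin of that pathway, stood at 23.4, 21.3 and 28.3 CPM in WT and 14.0, 13.0 and 14.2 CPM in KO (-0.82, SE 0.14, adjusted p = 0.063 with edgeR and 4.18e-05 with DESeq2), and Prickle2 at 22.7, 20.9 and 23.0 against 18.0, 19.7 and 17.6 CPM (-0.27, SE 0.10). The 7 Schwann cell markers, detected in every library, summed to 4320 to 7900 CPM in WT and 3020 to 3450 CPM in KO, and the 6 neuron markers to 878 to 2150 and 796 to 1050 CPM. Their part in these differences was not tested.

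Norrin, encoded by Ndp, is not a Wnt but binds Fzd4 with Lrp5 and the tetraspanin Tspan12, a signal that maintains vessels of the retina and the cochlea. Ndp stood at 8.05, 10.6 and 7.98 CPM in WT and 4.27, 4.10 and 3.25 CPM in KO, with a clear gap between the genotypes (-1.19, SE 0.20, a 2.29-fold difference, adjusted p = 0.063 with edgeR and 4.56e-05 with DESeq2). Tspan12 stood at 39.3, 33.2 and 31.5 CPM against 24.3, 27.6 and 21.7 CPM (-0.50, SE 0.13, adjusted p = 0.145 with edgeR and 0.0279 with DESeq2). The receptor Fzd4 stood at 89.3, 35.3 and 46.0 CPM in WT and 37.5, 36.1 and 39.5 CPM in KO and overlapped, and its fold change of -0.59 (SE 0.32) was -0.12 without WT replicate 1. Lrp5 overlapped as given above. The 5 endothelial markers, detected in every library, summed to 523, 354 and 352 CPM in WT and 398, 395 and 437 CPM in KO. WT replicate 1 lay above every KO library, and WT replicates 2 and 3 lay below every KO library. The part of endothelial cells in these differences was not tested. Lrp4, a receptor that presents sclerostin in bone and was named after its values had been looked at, was at 119, 122 and 139 CPM in WT and 171, 158 and 201 CPM in KO (0.47, SE 0.12, adjusted p = 0.129 with edgeR and 0.0124 with DESeq2).

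**Figure D4:**
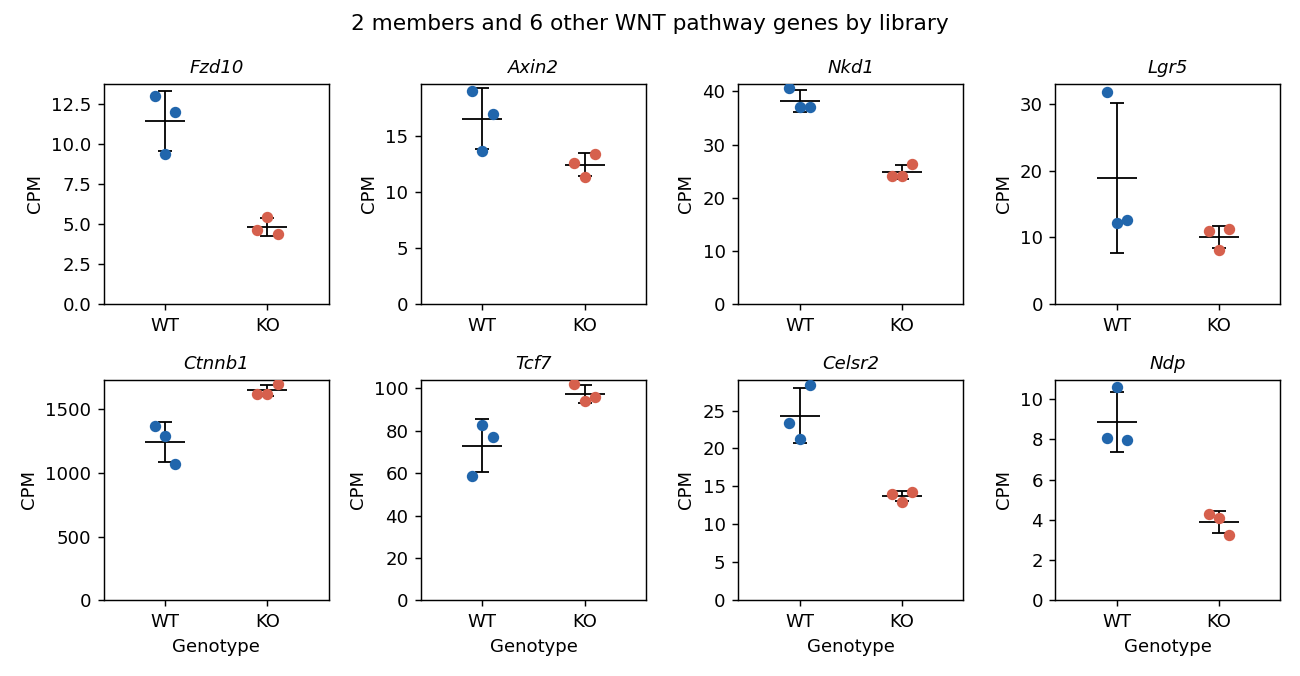
CPM of Fzd10, Axin2 and 6 other WNT pathway genes in each library (points), with the mean and SD of each genotype (n = 3). Fzd10, Nkd1, Celsr2 and Ndp are lower and Ctnnb1 and Tcf7 higher in each KO library than in each WT library. Axin2 and Lgr5 are also lower in each KO library, but narrowly, and Lgr5 is highest in WT replicate 1, at 31.8 CPM.

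Without WT replicate 1, edgeR called 4 of these other pathway genes lower (Nkd1, Apcdd1, Celsr2 and Ndp) and 3 higher (Lgr4, Ctnnb1 and Gpc3, the last named after its values had been looked at), of 54, where it called 5.46% of all genes lower and 3.6% higher. Without WT replicate 2 it called the same 4 lower and none higher, where 2.37% of all genes were called lower. Gpc3, a glypican that binds Wnt ligands, stood at 271, 72.7 and 77.5 CPM in WT and 96.3, 96.4 and 99.9 CPM in KO, so that its fold change of -0.53 over all libraries was 0.36 without WT replicate 1.

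Start sites of 31 members had an entry in a RefSeq promoter table (GRCm38.p6, the build of the counts). The 250 bases before each start were searched on both strands for CTTTGAT, the core site of TCF and LEF factors, and for ATGCAAAT, the octamer bound by POU factors. The first was found in 2 of 34 member windows (5.88%) against 3.21% of all 32851 windows, and the second in 1 of 34 (2.94%) against 1.6%. The windows printed are those of Wnt11, the only member without overlap between the genotypes that held a match, of Sfrp2, which held the only octamer, and of Axin2, the feedback gene of the pathway, which held neither. They lie at chr7:98834862-98835111, chr3:83766071-83766320 and chr11:108920099-108920348, all on the plus strand, and capitals mark a match.
Wnt11: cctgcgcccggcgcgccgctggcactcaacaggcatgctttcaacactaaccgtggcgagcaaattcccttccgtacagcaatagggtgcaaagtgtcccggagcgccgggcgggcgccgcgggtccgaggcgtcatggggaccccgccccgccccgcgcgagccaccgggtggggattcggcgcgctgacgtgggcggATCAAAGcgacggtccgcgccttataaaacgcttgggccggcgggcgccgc
Sfrp2: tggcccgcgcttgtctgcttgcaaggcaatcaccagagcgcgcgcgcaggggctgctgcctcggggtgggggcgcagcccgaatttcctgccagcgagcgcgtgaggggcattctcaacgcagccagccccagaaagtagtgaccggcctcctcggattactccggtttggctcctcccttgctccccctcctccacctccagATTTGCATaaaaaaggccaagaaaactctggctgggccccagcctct
Axin2: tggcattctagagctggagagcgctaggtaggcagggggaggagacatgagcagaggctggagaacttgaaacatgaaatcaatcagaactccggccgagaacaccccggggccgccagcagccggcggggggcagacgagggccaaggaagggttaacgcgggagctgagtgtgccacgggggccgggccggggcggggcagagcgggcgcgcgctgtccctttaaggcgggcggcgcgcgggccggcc
The capitals of Wnt11 are the reverse complement of CTTTGAT, starting 51 bases before the start site, and those of Sfrp2 the reverse complement of the octamer, starting 47 bases before it. Wnt5b held the other CTTTGAT, in 1 of its 3 windows.

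The 7 members below the count filter were Wnt1, Wnt3a, Wnt8a, Wnt8b, Wnt10a, Dkk4 and Rspo4. Wnt8a, Wnt8b, Wnt3a and Dkk4 held at most 7 counts in any library, and a count of 0 allows up to 0.131 to 0.168 CPM as counting error only. Wnt1 held 3, 18 and 9 counts in WT and 4, 5 and 6 in KO. Rspo4 and Wnt10a held most of their reads in WT replicate 1. Rspo4 held 32, 0 and 2 counts in WT and 0 in each KO library, and Wnt10a held 41, 0 and 7 counts in WT and 2, 7 and 1 in KO. The remaining tested members, Wnt2b, Wnt6, Wnt7a, Wnt9b, Fzd2, Fzd3, Fzd6, Sfrp4 and Sfrp5, had log2 fold changes of -0.34 to 0.20 and overlapped between the genotypes.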

How the data were processed

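Total RNA of mouse inner ear was made into libraries with a TruSeq Stranded mRNA kit, per the labels' protocols. The submitters' processing notes list the build mm10 and the tools HISAT2, HTSeq, Cufflinks and Trimmomatic, with no versions. Which annotation release was used, and whether counting used strand, is not given in the sources used here. Levels of genes with overlapping exons are therefore uncertain. The authors deposited whole-number read counts per gene that were not normalised.

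Genes were kept with filterByExpr (minimum count 10, 19687 genes), scaled by TMM and tested with edgeR 4.0.16 (quasi-likelihood F test) in R 4.3.3, genotype alone, with Benjamini-Hochberg adjustment over all genes tested and a threshold of 0.05. DESeq2 1.42.0 and limma-voom (limma 3.58.1) on the same genes were alternatives, with other scalings and filters, the replicate number as a block, a term for Xist reads, fits without mitochondrial, haemoglobin and muscle genes, and fits without each library. The edgeR step was tested on simulated data. SE is the fold change divided by the root of F. Exon lengths and overlaps came from GENCODE M21, in which all 48 members had the same coordinates.

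Members given in every library are those without overlap between the genotypes and a mean of at least 1 CPM (19), and the 3 highest per kb in each role. Wnt2, Fzd4 and the untested Wnt1, Rspo4 and Wnt10a are given outside this rule. Of other pathway genes, the 2 largest changes without overlap in each of 6 lists are given. Members and lists were chosen with earlier results of these data known. The labels do not say whether libraries came from separate animals, so p-values measure only the spread between these samples, which may be technical.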

Additional observations from a re-analysis of the deposited data

How the results depend on the processing

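No member passed with edgeR under RLE or upper-quartile scaling, either filter, the Xist term, the replicate block or without mitochondrial, haemoglobin and muscle genes, or with limma-voom. DESeq2 called 6 members lower and 0 higher, 2 other pathway genes higher and 5 lower, and 1603 genes in all against 78 in the main test. With the Xist term 0 genes passed in all (3185 at an unadjusted p under 0.05). With the replicate block 1 gene passed, 0 members and 0 other pathway genes, but the numbers do not pair the samples, since same-numbered libraries deviated from their group means with correlations of -0.13, -0.29 and -0.19. On leaving out 1 library, members called ranged from 0 to 2 lower and 0 to 0 higher, other pathway genes from 0 to 3 higher and 0 to 4 lower, all genes from 0 to 1814, and members without overlap from 20 to 25. All genes were at 0 without WT replicate 3 or any 1 KO replicate, at 1814 without WT replicate 1 and at 760 without WT replicate 2. RLE scaling left 20 members without overlap and upper-quartile scaling 18. Leaving out a library can only keep or raise the number without overlap. The share of all genes without overlap was 27.7% over all libraries and 47.0% without WT replicate 1. For the other libraries left out and for these scalings that share was not counted.

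Of the 28 members given in every library by the rule above, 7 turned sign in some fit without 1 library, and none in the other alternatives. The ranges were -0.63 to 0.09 for Dkk3, -2.05 to 0.14 for Sfrp2, -0.03 to 0.18 for Rspo3, -0.12 to 0.00 for Wnt5b, -0.07 to 0.16 for Frzb, -0.04 to 0.22 for Lrp5 and -0.07 to 0.10 for Lrp6. The median of all genes moved by less than 0.1 under each scaling. The small number of libraries and the spread within WT limit the precision. So do counts under 100 in most libraries for members such as Wnt2, Wnt3, Wnt11, Wnt16 and Rspo1.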
